A study of Mus musculus with 4 samples.

Results

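The unfolded protein response genes examined here were 10 named genes of 21440 protein-coding genes that could be placed with a strand. They were chosen by name, by a rule that uses no measured value, though earlier results of these data were known when the names were picked. General members were Hspa5, Hsp90b1, Dnajb9, Atf6, Ern1, Xbp1, Atf4 and Ddit3, and they were set against Creb3l1 and Creb3l2, which are linked to secretory cells. The data were 1 list of open chromatin regions from ATAC-seq of mouse salivary gland organoids (mSGOs), an assay that marks DNA open to the Tn5 transposase. Organoids were grown in Matrigel from the submandibular gland of non-irradiated C57BL/6 mice, in WRY medium with EGF, FGF2, insulin, dexamethasone and Wnt3a- and R-spondin1-conditioned medium. The labels name 2 samples at passage 1 and 2 at passage 2, in each case 1 from a mouse of 12 weeks and 1 from a mouse of 3 months. The study's methods combine all organoid samples in 1 consensus list, which this one was taken to be although the number of peaks the methods give for it is another, and there are no values per sample. Passages could not be compared, nor could the ages, though 12 weeks and 3 months are nearly the same age. Depth and replicate spread are unknown, and differences in fold between genes cannot be set against an error.

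The list held 32011 distinct regions. Each carries a fold, the ratio of its signal to the local background as the authors' peak caller gave it, and the fold of the strongest summit is used throughout. The submitters' processing notes name GRCm39, but the coordinates of the list went with the older build GRCm38. On GRCm38.p6, 8206 of 21440 genes had a region centred no more than 1 kb from their outermost 5′ end, called a region at the 5′ end from here on (38.3%, 95% Wilson interval 37.6 to 38.9), against 5.03% of genes placed on GRCm39 and 3.77% of GRCm38.p6 ends shifted by 50 kb. For the members, the counts were 9 on GRCm38.p6, 0 on GRCm39 and 0 after the shift.

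The unfolded protein response adjusts the endoplasmic reticulum (ER) to its load of proteins to fold. The sensors IRE1 (Ern1), ATF6 and PERK (Eif2ak3) detect unfolded proteins in the ER. IRE1 splices the mRNA of Xbp1, PERK signalling raises translation of Atf4, and ATF6 is cut in the Golgi to free a transcription factor. The factors then switch on chaperones, degradation of misfolded proteins and, under lasting stress, the cell death factor CHOP (Ddit3). Creb3l1 (OASIS) and Creb3l2 (BBF2H7) encode relatives of ATF6 that are cut in the same way and serve cells with heavy secretion, such as those that deposit bone and cartilage matrix. Salivary acinar cells are professional secretory cells, and their ER is large.

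The labelled tissue was checked with markers of cell types. A region lay at the 5′ end of 7 of 10 epithelial marker genes (Epcam, Cdh1, Krt5, Krt14, Krt8, Sox9 and Cldn4). Their folds, from 2.95 at Krt5, the lowest of the 8206 genes, to 7.82 at Sox9 with a median of 6.64, all lay below the median of protein-coding genes with a 5′ region (8.41). Krt18, Krt7 and Trp63 had none at the outermost 5′ end, but 7 regions lay within Trp63. Of 7 acinar genes, 0 had such a region, among them the water channel gene Aqp5 and the secretory cell factor gene Bhlha15. Immune markers had 1 of 6 (Cd68, fold 4.58, above that of Krt5), and endothelial and fibroblast markers had 0 of 6 each, beside 38.3% of all genes. Away from the 5′ end, regions lay within the acinar gene Chrm3 (6), the endothelial genes Pecam1 and Vwf (3 each) and the fibroblast gene Pdgfra (1).

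A region lay at the 5′ end of 9 of the 10 members, beside 38.3% of all protein-coding genes. All 8 general members had one, and so did Creb3l2. Creb3l1 had none. Elsewhere in the gene, 3 members had regions, beside 25.6% of all protein-coding genes, and within 50 kb 9 members did, beside 71.0%. Together the members held 44 regions, of which 10 lay at a 5′ end, 10 elsewhere in a gene and 24 elsewhere within 50 kb of a gene. The region closest to the 1 kb limit on the inside belonged to Atf6, with its midpoint 806 bp from the 5′ end, and the closest on the outside lay 1790 bp upstream of Hspa5.

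**Figure D1:**
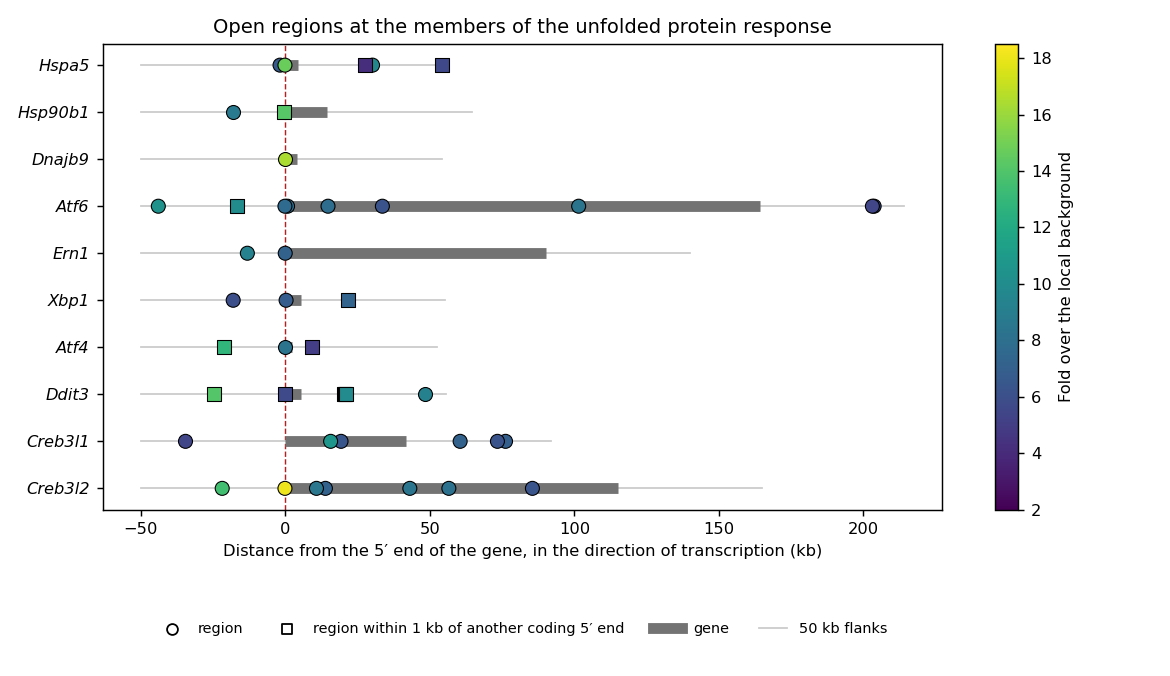
Open regions at the 10 members, placed by distance from the 5′ end in the direction of transcription (kb) and coloured by fold over the local background. Thick bars are genes, thin lines the 50 kb flanks, and squares are regions within 1 kb of the 5′ end of another protein-coding gene. Every member except Creb3l1 has a region within 1 kb of its 5′ end, and Creb3l2 has 5 further regions along its gene.

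Sequences before the start of 4 members are shown because their open regions were the strongest at member 5′ ends. They come from RefSeq promoter windows of GRCm38.p6, which hold 250 bases before and 50 after a start and were found for 8 of the 10 members, all but Atf6 and Creb3l1. Only bases before the outermost 5′ end are printed, fewer at Creb3l2 because its RefSeq start lies 128 bp inside that end, read 5′ to 3′ along the gene's strand. Capitals mark CCAAT and CCACG on either strand, which read ATTGG and CGTGG on the other. These are the 2 parts of the ER stress response element (ERSE), where NF-Y binds CCAAT and ATF6 or XBP1 binds CCACG. Positions are chr2:34771840-34772089 (+ strand) for Hspa5, chr10:86705445-86705694 (- strand) for Hsp90b1, chr12:44210069-44210318 (- strand) for Dnajb9 and chr6:37442277-37442398 (- strand) for Creb3l2.
Hspa5: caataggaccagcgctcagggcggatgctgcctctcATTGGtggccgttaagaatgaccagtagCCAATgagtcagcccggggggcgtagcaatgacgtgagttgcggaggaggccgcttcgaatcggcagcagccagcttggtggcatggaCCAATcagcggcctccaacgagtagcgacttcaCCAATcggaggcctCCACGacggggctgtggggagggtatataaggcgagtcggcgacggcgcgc
Hsp90b1: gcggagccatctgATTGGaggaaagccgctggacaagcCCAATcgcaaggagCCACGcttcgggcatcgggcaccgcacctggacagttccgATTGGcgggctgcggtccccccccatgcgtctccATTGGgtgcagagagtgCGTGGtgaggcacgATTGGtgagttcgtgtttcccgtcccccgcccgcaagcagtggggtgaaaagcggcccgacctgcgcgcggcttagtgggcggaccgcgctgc
Dnajb9: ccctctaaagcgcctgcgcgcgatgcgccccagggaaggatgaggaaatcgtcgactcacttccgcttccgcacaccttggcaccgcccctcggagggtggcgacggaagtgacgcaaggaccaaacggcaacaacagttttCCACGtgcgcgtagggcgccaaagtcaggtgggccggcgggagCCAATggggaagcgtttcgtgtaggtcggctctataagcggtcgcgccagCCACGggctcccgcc
Creb3l2: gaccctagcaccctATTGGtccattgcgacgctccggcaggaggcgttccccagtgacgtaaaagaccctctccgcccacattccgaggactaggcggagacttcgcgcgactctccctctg

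All printed bases of the 4 genes lay inside their open region. In Hspa5 and Hsp90b1, CCAAT and CCACG stood 9 bases apart, the arrangement that defines the ERSE. Hspa5 had 1 such site (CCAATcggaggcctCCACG), from position -65 to -47 relative to the start, and its centre was 22 bp from the strongest summit. Hsp90b1 had 2, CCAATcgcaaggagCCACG from -212 to -194 and, on the other strand, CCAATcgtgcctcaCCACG from -107 to -89. Their centres were 68 bp and 173 bp from the strongest summit of Hsp90b1. Of 17492 promoter windows, 26 held the full ERSE in the 250 bases before the start, on either strand (0.149%). The members were named as genes of the ER stress response, so the presence of this element is not independent of that choice. Dnajb9 held CCAAT and CCACG but not at that spacing. Only exact letters at the exact spacing were counted, and variants of the element were not searched, so these counts may miss sites.

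Other letters were searched on both strands of the same bases. CCAAT alone was present before the start of 6 of 8 members and 36.3% of all windows, with 5 copies in Hsp90b1 and 4 in Hspa5. CCACG was present in 5 of 8 and in 32.3% of all windows. Both lie within the full ERSE, so these counts overlap. TGACG, the core that ATF and CREB factors bind, was present in Hspa5, Dnajb9, Atf4 and Creb3l2, and in 20.3% of all windows. The GC box GGGCGG occurred in 5 of 8 members and 42.7% of windows, with 4 copies before Ern1. The ERSE-II (ATTGG and CCACG 1 base apart), TGACGTGG, TGACGTCA and TGATGCAA were in 0 of 8 members, and in 0.0457%, 0.572%, 2.01% and 0.823% of all windows. TGACG also lies within TGACGTGG and TGACGTCA. Xbp1 held 0 of all these letters, but its open region lies past the start, outside the bases searched. A match of letters is a description and does not show that a factor was bound.

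**Figure D2:**
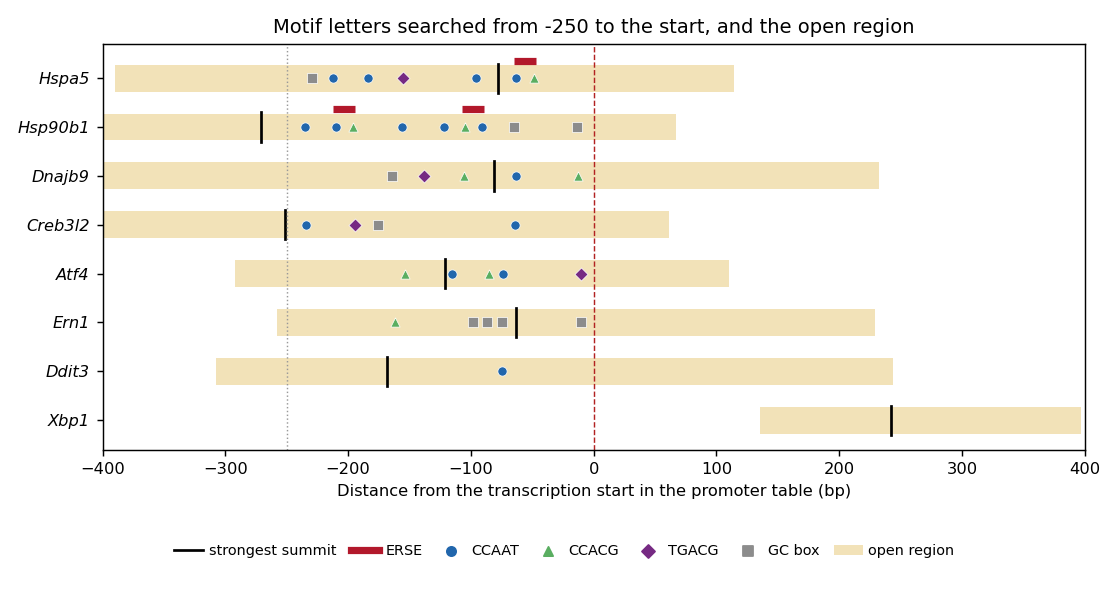
Motif letters in the 250 bases before the start (dotted line to dashed line) of 8 members, with distance from the start in bp on the x axis. Yellow bars are the open regions, cut at the edge of the plot, black lines their strongest summits and red bars the full ERSE. Only Hspa5 (1) and Hsp90b1 (2) carry an exact ERSE among these 8, and the region of Xbp1 lies past its start.

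The regions at the 5′ ends of the 3 chaperone genes had the highest folds among the general members, and that of Hsp90b1 is shared with a neighbouring gene. Hspa5 encodes BiP, the main HSP70 chaperone of the ER lumen, which also holds the sensors inactive. Its region at chr2:34771701-34772204 covered the 5′ end with a fold of 14.8, which was higher than in 93.0% of the 8206 genes with a region there. Hsp90b1 encodes GRP94, the HSP90 chaperone of the ER. Its region at chr10:86705377-86706174 had a fold of 14.2 and a width of 798 bp, the widest of the members, and its midpoint lay 332 bp from the 5′ end of Hsp90b1 and 36 bp from that of the neighbouring gene Ttc41, so that it cannot be assigned to either. Dnajb9 encodes ERdj4, a co-chaperone of BiP. Its region at chr12:44209836-44210623 had a fold of 16.4 over 788 bp and stood above 96.4% of those genes. It was also within 1 kb of the 5′ end of the noncoding gene Mir5627. These 3 regions held 2, 3 and 3 summits.

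Other regions near the chaperone genes lay in the flanks, 4 at Hspa5, 1 at Hsp90b1 and 0 at Dnajb9. None of the 3 genes, 4.17 to 14.6 kb long, held a region away from its 5′ end. Of the 4 at Hspa5, 2 lay within 1 kb of the 5′ ends of Rabepk and of Fbxw2 and Gm34653. The others were 1.8 kb upstream (fold 6.58) and 25.7 kb past the end of the gene (fold 9.62). The 1 at Hsp90b1 lay 18.2 kb upstream in Ttc41 with a fold of 8.72. The region at the 5′ end of Dnajb9 was the only one in a window of 104.2 kb. The median of all protein-coding genes was 2 flanking regions.

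The sensor genes Ern1 and Atf6 had 5′ regions with folds below the median of all genes with one (8.41). Ern1 encodes IRE1α, a kinase and endonuclease. Its region at chr11:106487567-106488053 was centred 14 bp upstream of the 5′ end, with a fold of 7.18, above 34.1% of genes with a region there. Atf6 had 2 regions at the 5′ end, and 4.92% of protein-coding genes had 2 or more. They lay at chr1:170868556-170868836, which covered the 5′ end (fold 7.70), and at chr1:170867637-170867922 inside the gene (fold 7.83). Both were within 1 kb of the 5′ end of the noncoding gene Gm9929.

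Along these long genes the sensors differed. Atf6 spans 164.1 kb and held 3 further regions, at 14.8, 33.6 and 101.5 kb from its 5′ end, with folds of 7.85, 6.21 and 8.35. The 200 protein-coding genes of most similar length had a median of 2 (quartiles 0 and 4). Ern1 spans 90.2 kb and held 0, beside a median of 1 (quartiles 0 and 2), and 46.5% of genes of similar length likewise held 0. In the flanks of Atf6, 4 regions were listed, including 1 at the 5′ end of the phosphatase gene Dusp12 (fold 9.97) and 1 in Fcrlb, 43.9 kb upstream (fold 10.4). The flanks of Ern1 held 1, 13.1 kb upstream, with a fold of 9.34, near the 5′ ends of the noncoding genes Gm36220, Snord104 and Gm22711.

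The 3 transcription factor genes had 5′ regions with folds at or below the middle of the range. Atf4, which encodes the effector of the PERK branch, had a region at chr15:80254892-80255294 with a fold of 8.30, above 48.7% of genes with a 5′ region. Xbp1 had a region at chr11:5520777-5521037 with a fold of 6.76. It was 261 bp wide, the narrowest among the strongest 5′ regions of the members, and lay inside the gene, centred 266 bp past the 5′ end, so that it did not cover the 5′ end itself. The 5′ regions of Xbp1 and Ern1 were not among the 16006 regions with the lowest q-values. Ddit3 had the lowest fold of the members, 5.72, above 14.5% of genes, at chr10:127290486-127291036. Its midpoint was 108 bp from the 5′ end of Mbd6, and the region cannot be assigned to either gene.

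None of these 3 short genes held a region away from the 5′ end. Their flanks held 9 regions, of which 7 lay at the 5′ ends of other genes, 4 of them at Ddit3. Over all protein-coding genes, 40.2% of flanking regions lay within 1 kb of another protein-coding 5′ end. At Atf4 both did so, at Mief1 (fold 12.8) and Rps19bp1 (fold 5.02), and at Xbp1 1 of 2 did, at Ccdc117 (fold 7.24). At Ddit3 these were 1 region shared by Dctn2 and Kif5a, with a fold of 14.1, and 3 at Mars1, with folds of 5.53, 2.42 and 9.81. The remaining region of Ddit3 lay in Gli1 (fold 9.16), and that of Xbp1 18.0 kb upstream (fold 5.95).

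Folds at member 5′ ends fell into a high and a low set. Creb3l2, Dnajb9, Hspa5 and Hsp90b1 had 14.2 or more and lay above the upper quartile of all genes with a 5′ region (11.1). Atf4, Atf6, Ern1, Xbp1 and Ddit3 had 8.30 or less and lay below the median (8.41), and no member lay between. The median of the 9 members was 8.30. Since they fall into these sets, it moved with the regions used. Among the 16006 regions with the lowest q-values, it was 14.2 against 9.94 for all genes, without Xbp1 and Ern1. Among regions that cover the 5′ end, it was 11.2 against 8.52. Among the 14422 regions with the highest IDR score (1000, a measure of reproducibility), it was 8.30 against 10.2, so the members lay above or below all genes depending on the set.

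**Figure D3:**
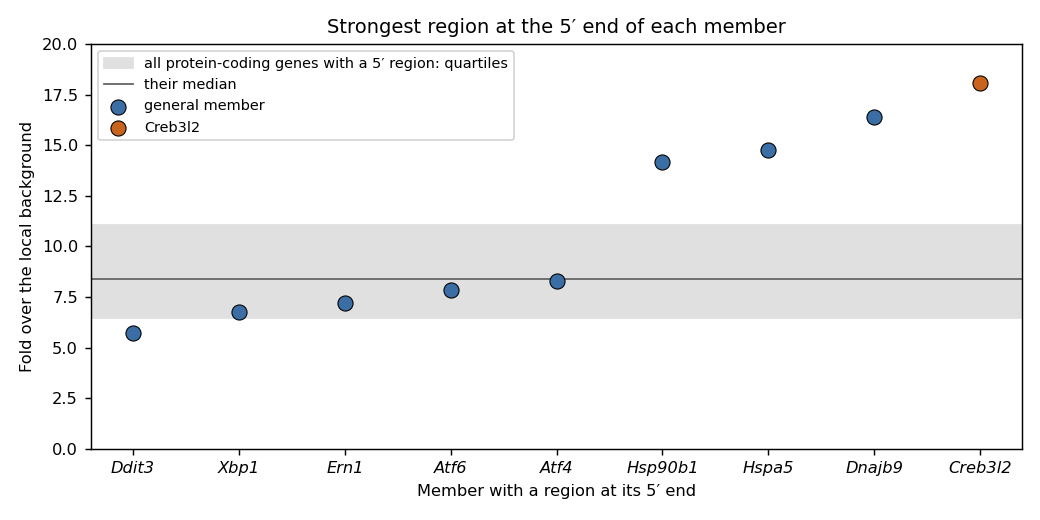
Fold over the local background (y axis) of the strongest region at the 5′ end of 9 members, in rising order. The grey band and line give the quartiles and median of the 8206 protein-coding genes with such a region (6.46, 8.41 and 11.1). The 3 chaperone genes and Creb3l2 lie above the band, from 14.2 to 18.1.

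Creb3l1 and Creb3l2 differed from each other at the 5′ end. The region of Creb3l2 at chr6:37442087-37442603 covered the 5′ end and had a fold of 18.1, the highest of any member and above 98.3% of genes with a region there. It was also within 1 kb of the 5′ end of the noncoding gene Gm33318. Creb3l1, with a single transcript in the RefSeq table, had no listed region within 15.7 kb of its 5′ end. Since depth is unknown, weaker opening there could be missing from this list.

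Both genes held open regions along their length. In Creb3l1, 2 regions lay 15.7 kb and 19.3 kb from the 5′ end, at chr2:92008301-92008612 (fold 10.6) and chr2:92004708-92004942 (fold 6.43). The median for 200 genes of similar length was 0 (quartiles 0 and 1), and 15.0% had as many or more. In Creb3l2, 5 regions lay 10.8, 13.9, 43.1, 56.6 and 85.5 kb from the 5′ end, with folds of 8.56, 7.11, 8.39, 8.19 and 6.26. The median for genes of its length was 1 (quartiles 0 and 2), and 11.0% had as many or more. Both genes lay above the upper quartile of their length, whereas Atf6 lay within the quartiles and Ern1 at the lower one. In the 16006 regions with the lowest q-values, and likewise in the 14422 with an IDR score of 1000, Creb3l1 held 1 region, Creb3l2 4, Atf6 1 and Ern1 0. The upper quartile of genes of similar length in those sets was 0 for Creb3l1 and 1 for Creb3l2.

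Per length, Creb3l1 and Creb3l2 together held 7 regions in 156.9 kb of gene, or 4.46 per 100 kb. The long sensor genes Atf6 and Ern1 held 1.18 per 100 kb, and all protein-coding genes 1.17. No test was made, because 2 genes chosen by name are not replicates.

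**Figure D4:**
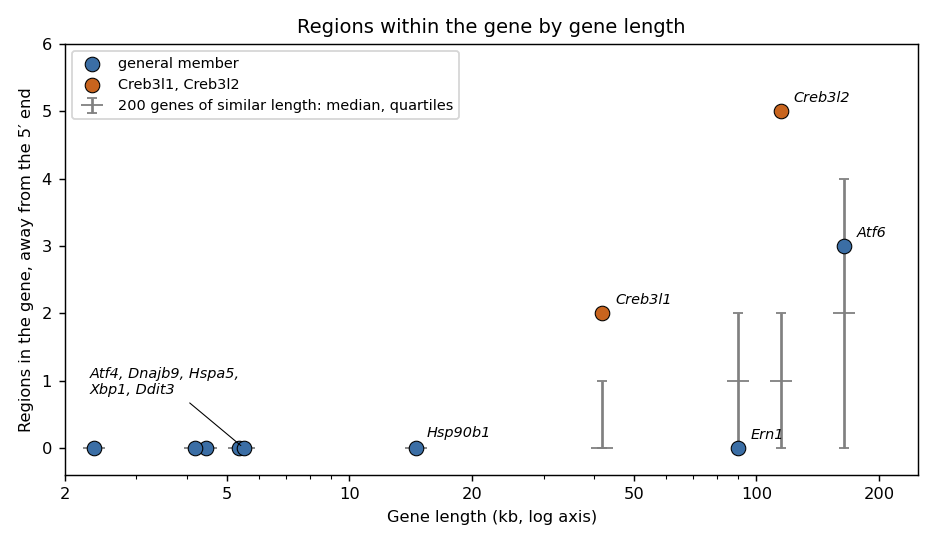
Number of regions in the gene, away from the 5′ end (y axis), by gene length in kb (log x axis). Points are members, and grey marks give the median and quartiles of the 200 protein-coding genes closest in length. Creb3l1 (2 regions) and Creb3l2 (5) lie above the quartiles of their length, and Ern1 holds 0.

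In the flanks, the mean number of regions per gene was 2.50 for Creb3l1 and Creb3l2 and 2.38 for the general members, beside 2.20 for all protein-coding genes. In the 16006 regions with the lowest q-values, these means were 2.00, 1.25 and 1.11, and in those with an IDR score of 1000 they were 2.00, 1.00 and 0.997. They rest on 5, 4 and 4 regions at Creb3l1 and Creb3l2. Of 19 flanking regions of general members, 10 lay within 1 kb of another protein-coding 5′ end, and of the 5 of Creb3l1 and Creb3l2, 0 did, beside 40.2% for all protein-coding genes. These are few regions and not independent, since 3 of the 10 lie at Mars1 and 3 of the 5 in Dgkz, and nothing is read from the counts. Upstream of Creb3l2, a region at chr6:37463914-37464300 lay 21.8 kb from the 5′ end, outside any protein-coding gene, with a fold of 13.5. Upstream of Creb3l1, 1 region lay 34.5 kb away (fold 5.47). Past the end of Creb3l1, 3 regions lay in the neighbouring gene Dgkz, with folds of 7.15, 6.21 and 6.93.

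Other genes of the pathway were taken from 6 lists with 70 names, of which 69 matched the gene table. A region lay at the 5′ end of 58 of the 69, beside 38.3% of all protein-coding genes. Outside the list of CREB3 family and secretory-cell factors, the count was 56 of 62, and 24 of these lay above the upper quartile of fold. Of the 62, 6 had none at the outermost 5′ end, namely Ern2, Cebpb, Nfyc, Txndc5, Edem1 and Sec24d.

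Folding genes had a region in 17 of 18 cases, with a median fold of 11.5. Dnajc3 and Dnajb11, both co-chaperones of BiP, were highest, with 16.1 and 16.0. Txndc5, a disulfide isomerase gene, had none. Genes of ER-associated degradation had one in 11 of 12 cases, with a median of 12.1. Sel1l, a subunit of the ubiquitin ligase complex that removes misfolded proteins, had 19.0 and Edem3, a mannosidase of that route, 17.7. Edem1 had none at the 5′ end but 3 in the gene.

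Translocation and transport genes had a region in 13 of 14 cases. The signal recognition particle receptor gene Srpr had a fold of 18.7 and Sec61g, a subunit of the translocon, 15.8. Sec24d, a coat protein of vesicles that leave the ER, had none at the 5′ end and 6 in the gene. Targets and feedback genes of the PERK branch had one in 7 of 7 cases, but none of the 7 folds lay above the upper quartile. The highest were 10.8 at Asns, for asparagine synthetase, and 10.6 at Eif2s1, for the subunit of eIF2 that PERK phosphorylates.

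Among other sensors and transcription factors, 8 of 11 had a region. Eif2ak3, which encodes PERK, had a fold of 15.5, so the sensor genes were not alike in fold. Nfyb, a subunit of NF-Y, had 12.1. Cebpb and Nfyc had no region at the outermost 5′ end, although 4 lay within Nfyc. Ern2, the paralogue of Ern1 known from mucous epithelia, had 0 at the 5′ end and 0 in the gene.

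In the list of CREB3 family and secretory-cell factors, 2 of 7 were open at the 5′ end, a share near the 38.3% of all protein-coding genes. These were Creb3 (fold 7.33) and Ell2 (fold 14.7), an elongation factor gene. Creb3l3, Creb3l4, Bhlha15, Agr2 and Spdef had none. Bhlha15 encodes the acinar factor MIST1, Agr2 a disulfide isomerase of mucous cells and Spdef a factor of goblet cells. Flanking regions numbered 7 at Creb3l4, 6 at Creb3l3, 3 each at Creb3 and Ell2, 2 at Bhlha15, 1 at Agr2 and 0 at Spdef, beside a median of 2 (quartiles 0 and 3) for all protein-coding genes. Of the 5 CREB3 family genes in all, Creb3 and Creb3l2 were open at the 5′ end.

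**Figure D5:**
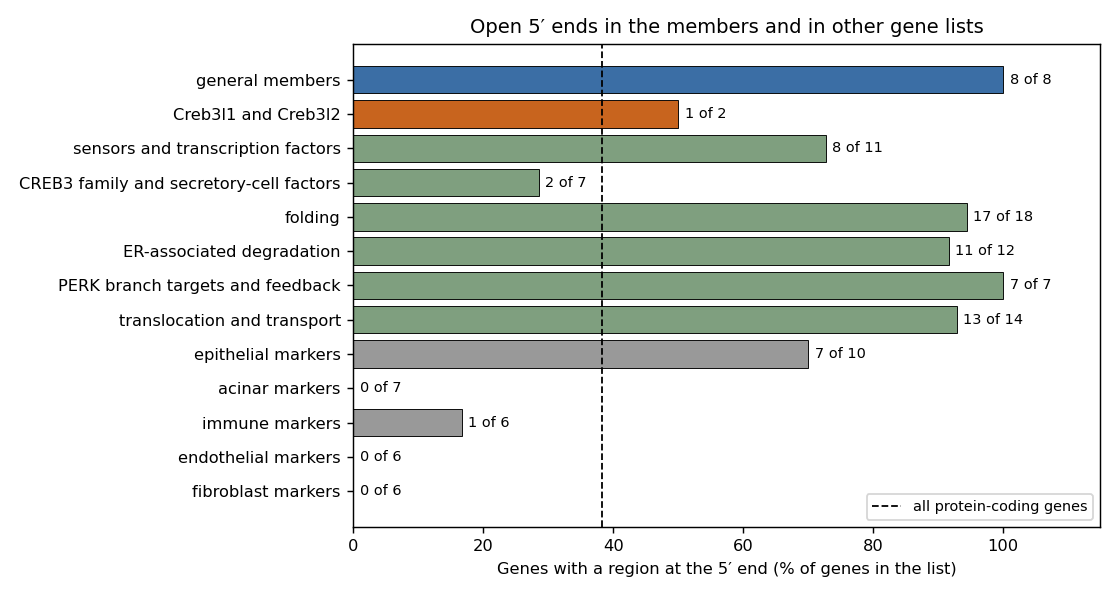
Share of genes with a region at the 5′ end (% of genes in the list, x axis), for the members, 6 pathway lists and 5 lists of cell type markers. The dashed line is the share of all protein-coding genes (38.3%). Most pathway lists exceed 70%, whereas CREB3 family and secretory-cell factors (2 of 7) lie near the line and acinar markers are at 0 of 7.

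Base composition was compared for the members and the list of CREB3 family and secretory-cell factors. The CpG ratio, the number of CG pairs relative to that given by the C and G content of the window, was at least 0.6 in 48.3% of windows. Such CpG-rich windows had a region at the 5′ end in 63.4% of cases and other windows in 15.6%. Among the members with a window, the ratio was 0.652 at Creb3l2, between 0.785 and 1.09 at Ern1, Ddit3, Hsp90b1, Atf4, Hspa5 and Dnajb9, and 0.535 at Xbp1. The 5′ region of Xbp1 lay past its start and outside the window, so this ratio does not describe the open bases. Of the secretory-cell list, Creb3 and Ell2 had 0.718 and 0.816, and the 5 genes without a region had between 0.329 and 0.514. The other lists were not compared by this ratio, and its part in the counts was not tested.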

How the data were processed

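ATAC-seq libraries were made with the Nextera kit and sequenced with 75 bp paired-end reads. Alignment and peak calls by the authors used the ENCODE pipeline for ATAC-seq, whose version and filters are not given in the sources used here. They made a consensus file of all organoid samples, which the deposited list was taken to be, but the number of peaks the methods give for it matches neither the distinct regions nor the lines of the list. HOMER and GRCm39 are named in the submitters' processing notes. The deposited list gives, for each summit, an IDR score, a fold (ratio) over the local background, the −log10 of the q-value and the summit offset, and also the −log10 of the p-value, which was not used. Depth per sample is unknown.

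Its 69545 lines were joined into 32011 distinct regions with the values of the summit of highest fold. Genes came from a RefSeq table of GRCm38.p6. Strand came from the RefSeq promoter table for 17492 protein-coding genes and from GENCODE M39 by name for 3948, Atf6 and Creb3l1 among them. The 447 genes without a strand were left out. A region was at the 5′ end if its midpoint lay within 1 kb of the outermost end. It was otherwise in the gene or within 50 kb of it. Counts are given beside those of all protein-coding genes, and no test was run. Of 116 list entries, Ero1l, Ero1lb and Muc19 were matched by older symbols (Ero1a, Ero1b and Smgc, the last counted once), and Nars was not matched.

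The members and lists were chosen with earlier results of these data known. Named genes are the members, the 2 genes of highest fold in each pathway list, all pathway list genes without a 5′ region and protein-coding genes whose 5′ end is within 1 kb of a member's region. Noncoding, marker and other genes are named for position or were chosen after their values were seen, and the motif search and the CpG ratio were added with the data in view. The function that counts regions was tested on simulated regions placed near 5′ ends. The choice of the strongest region and the motif search were not tested in this way. Counts were made in Python 3.11.15 (pandas 2.3.3, numpy 2.4.6), intervals with scipy 1.17.1 and plots with matplotlib 3.10.9.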

Additional observations from a re-analysis of the deposited data

How the results depend on the processing

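No paired analysis was possible because the list gives nothing per sample, and for the same reason no sample could be left out. Of 45 values under alternative settings, 23 stayed close to the reported value. Close means within 1.5 times for a count, within the Wilson interval for the share of protein-coding genes and equal to 3 digits for a median fold, so that small moves of the share count as moves. The number of members with a 5′ region ranged from 7 to 9. It was 7 among the 16006 regions with the lowest q-values, without Xbp1 and Ern1, and 8 if the region had to cover the 5′ end, without Xbp1. Creb3l1 had none at any distance or in any set tried. In those 16006 regions, the members held 6 regions in the gene and 14 in the flanks, the general members 17 in all, 25.9% of protein-coding genes had a 5′ region, and the median fold of the members was 14.2. Among the 14422 regions with an IDR score of 1000, these counts were 6, 12 and 17, and the share was 24.0%. Counting all 69545 lines gave 17 in the gene and 44 in the flanks, with 25 at Creb3l1 and Creb3l2 and 54 at the general members. Flanks of 25 kb and 100 kb gave 15 and 40. Without regions near another protein-coding 5′ end, 14 remained in the flanks and 19 at the general members. The share of protein-coding genes was 35.4% within 500 bp, 41.4% within 2 kb and 32.4% for regions that cover the 5′ end, where the members' median fold was 11.2. With starts from the promoter table, an alternative chosen after seeing the data, it was 39.8%. Pathway list genes with a 5′ region numbered 61 with those starts, against 58 as reported. They numbered 54 among the 16006 regions with the lowest q-values and 51 among those with an IDR score of 1000. These sets are smaller or larger by construction. With depth unknown, a missing region may be an undetected one.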

Other observations

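The 26 promoter windows with a full ERSE before the start were set beside the gene lists, after their values were seen. Of the 26, 13 (50.0%) had an open region at the 5′ end, beside 38.7% of the other windows. Of these windows, 10 belonged to the members or the other pathway genes, namely Hspa5, Hsp90b1, Calr, Canx, Creld2, Derl3, Dnajc3, Ero1b, Pdia6 and Syvn1. All 10 had an open region, as did 9 of 10 members and 58 of 69 pathway genes with or without the element, with folds from 7.96 at Syvn1 to 16.1 at Dnajc3. Calr and Canx encode the lectin chaperones calreticulin and calnexin, and Derl3 and Syvn1 serve degradation of misfolded proteins. Of the other 16 windows, 3 had a region, at Alg12, Hnrnpa3 and Pan2. Alg12, a mannosyltransferase gene of the ER, shares both its site and its region (fold 13.1) with the neighbouring gene Creld2, so these are not separate cases. The 13 genes without a region were Calr4, a paralogue of Calr, and Acacb, Acnat2, Adcy3, Esp15, Esp16, Esp36, Olfr59, Ptgdr2, Tdrd9, Xlr3a, Xlr3b and Xlr3c. Hsp90b1 was the only window with 2 copies. The members and lists were made from genes known for ER stress, so their overlap with this element is not independent of it, and no test was run.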
